A study of Homo sapiens with 6 samples.

Results

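The HIST genes are the clustered genes of the core histones H2A, H2B, H3 and H4 and of the linker histone H1, named by cluster (HIST1 to HIST4), histone type and a letter. In the count table of H9 cells given LINE-1 oligonucleotides, 89 of 53712 gene symbols had the form HIST, a cluster number from 1 to 4, a histone type and a letter code. The 51 of them with at least 15 counts over the 6 libraries are the members described here. They were compared between cells given the antisense oligonucleotide ASO-L1 and cells given the sense oligonucleotide SO-L1, by cluster and by histone type. Of the 51 members, 41 were in HIST1, 6 in HIST2, 3 in HIST3 and 1 in HIST4.

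Clustered histone genes supply new histone protein while DNA is copied in S phase. Most of their mRNAs have no poly(A) tail and end a few bases after a short stem-loop, which the stem-loop binding protein SLBP holds through processing, export and translation. Some of these genes also make a longer mRNA that runs past the stem-loop to an ordinary poly(A) signal and carries a tail, a form described mainly in cells that leave the cycle or differentiate. Poly(A) selection keeps the tailed form and loses most of the stem-loop form. The counts here therefore follow the tailed transcripts, plus whatever tail-less RNA was carried through, and these sources cannot be told apart.

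H9 is an established human embryonic stem cell line. It was grown in PXGL, and the series calls the cells naive. The treated cells received 25 nM of ASO-L1, directed against the retrotransposon LINE-1, and the control cells 25 nM of SO-L1. Both groups also had 0.7 uM trans-ISRIB, an inhibitor of the integrated stress response, 5 uM emricasan, a caspase inhibitor, and 10 uM of the ROCK inhibitor Y-27632, all taken off after 24 hours. RNA was taken at 48 hours from unsorted cells, so untransfected cells may be included. Each group had 3 libraries of 200 ng RNA, numbered 1 to 3 in the titles. Nothing states that replicates were separate cultures, and the p-values cover only the variation among these libraries, part of which may be technical. No row of the table is named for a LINE-1 element, and the knockdown was not analysed here.

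Libraries held 23330875 to 31164287 counts in ASO-L1 cells and 24027869 to 30956692 counts in SO-L1 cells. Of 16873 genes tested with edgeR (quasi-likelihood, Benjamini-Hochberg), 3031 (18%) were called higher and 2653 (15.7%) lower in ASO-L1 cells at an adjusted p under 0.05. All 12 pluripotency markers had reads, including POU5F1, NANOG and SOX2. Over these 12 genes the summed level was 1746 to 1998 CPM in ASO-L1 libraries and 2029 to 2207 CPM in SO-L1 libraries (counts scaled to the library total with TMM factors), and 2 of 11 tested were called higher and 4 lower. With the replicate block the counts were 2 and 7, against 23.3% and 22.5% of all tested genes. POU5F1 (edgeR adjusted p = 0.0391), NANOG (0.00396) and DPPA5 (3.21e-07) were then called lower in addition. The 2 called higher, with and without the block, were TFCP2L1 and KLF4. Without the block TFCP2L1 had a log2 fold change of 0.47 (edgeR adjusted p = 0.00511) and KLF4 0.72 (0.0353). The 4 called lower without the block were PRDM14, DPPA3, SUSD2 and DNMT3L. TFCP2L1 (0.0579), DPPA3 (0.0609) and DNMT3L (0.0732) lost their calls without both libraries numbered 1. Some markers of other cell types moved with the oligonucleotide too. For 7 endoderm markers the sum was 62.0 to 115 CPM in ASO-L1 libraries and 17.6 to 30.97 CPM in SO-L1 libraries, with 3 of 6 tested called higher. Most of this sum was CER1, with 70.3 ± 26.7 CPM in ASO-L1 cells and 14.5 ± 6.48 CPM in SO-L1 cells (SD, n = 3 each). GATA6 and SOX17 were called higher as well. FOXA2 (log2 fold change 0.47), GATA4 (-0.15) and PDGFRA (-0.37) were not called. For 10 trophectoderm markers it was 26.6 to 44.0 CPM against 23.9 to 27.8 CPM in SO-L1 libraries, with 3 of 7 called higher, and for 10 fibroblast markers 596 to 690 CPM against 508 to 577 CPM in SO-L1 libraries, with 4 of 9 called higher. No marker of these lists was at 0 in all libraries, and their part in the histone values was not tested. In RNA of whole cultures, fewer cells of a type and less RNA per cell cannot be told apart.

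The 51 members together held 12027 of all counts, or 0.00731%. Reads were unevenly spread among them. HIST1H2BK alone had 18.5% of the members' counts, the first 5 genes 55.1% and the first 12 genes 74.8%, while the median member had 98 counts in all. These are shares of reads and not of molecules, because counts were not divided by transcript length. In all 6 libraries, 46 members had at least 1 read. HIST1H1PS1, with 16 counts, lay just inside the limit of 15 and HIST1H2AB, with 14 counts, just outside it. Of the 38 symbols below the limit, 23 had 1 to 14 counts, 129 together, and 15 had none, where a count of 0 over all libraries allows up to 0.0182 CPM (counting error only). The genes known from testis were among the lowest. HIST1H1T, the testis linker histone, had 2 counts and HIST3H3, a testis H3, had 1. HIST1H2AA and HIST1H2BA, the testis H2A and H2B genes, had none.

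Near-identical gene copies bear on some of these zeros. HIST2H3A and HIST2H3C share an identical run of 1656 bases in GENCODE 29 transcripts and had no reads. HIST2H4A and HIST2H4B, which share 1547 bases, had none either. HIST2H2AA3 had 98 counts, whereas its copy HIST2H2AA4, with 549 bases in common, had none. How reads that fit several copies were assigned is not given in the sources used here, so the values of these genes are uncertain.

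The summed level of the members was higher in every ASO-L1 library than in any SO-L1 library, and highest in ASO-L1 replicate 2. Summed over the 51 members, the level was 77.8, 124 and 72.6 CPM in ASO-L1 replicates 1 to 3, and 59.8, 63.5 and 53.5 CPM in SO-L1 replicates 1 to 3. Replicate 2 of ASO-L1 stood far above the other libraries, which lay between 53.5 and 77.8 CPM. Means were 91.6 ± 28.5 CPM in ASO-L1 cells and 58.9 ± 5.06 CPM in SO-L1 cells (SD, n = 3 each), a ratio of 1.55, or 0.64 on the log2 scale. Without ASO-L1 replicate 2 the log2 ratio was 0.35, and without both libraries numbered 2 0.41. With 3 libraries a group, the smallest two-sided p of an exact permutation test is 0.1, and none is given for sums.

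Of the 51 members, 32 had enough reads for the test over all genes. Of these 32, 7 were called higher and 0 lower by edgeR's quasi-likelihood test, against 18% of all tested genes called higher and 15.7% called lower. The share called higher, 7 of 32, was thus near that of all genes in this fit without a block, while none was called lower. At an unadjusted p under 0.05 there were 10 higher and 0 lower. The shares of all tested genes at that threshold are not given here, so these counts have no baseline. The log2 fold change was above 0 in 29 of 32 members, against 48.8% of all tested genes, and its median was 0.57 against -0.01 over all tested genes. The median of the members was 0.22 without ASO-L1 replicate 2 and 0.32 without both libraries numbered 2. The filter on low counts bears on these figures: 7 of the 32 had fewer than 3 SO-L1 libraries above its level of 0.364 CPM, and HIST1H3D had none, so they are a description of the genes that passed. With no filter, over all 51 members, 39 had a log2 fold change above 0 and the median was 0.35. In that fit 10 were called higher and 0 lower, against 9.34% and 8.93% of all 33437 genes with at least 1 read. Members had at least 15 counts, so these shares include many genes with fewer reads and are not a like baseline. With the replicate number as a block, 11 of 32 were called higher and 0 lower, against 23.3% and 22.5% of all genes. Without ASO-L1 replicate 2, 4 of 32 were called higher and 0 lower, against 14.9% and 13% of all genes, and without both libraries numbered 2 the counts were 7 and 0, against 21.6% and 20.1%. Without ASO-L1 replicate 3, 11 of 35 tested members were called higher and 0 lower, against 16.5% and 14.5% of all genes. Without SO-L1 replicate 1 the counts were 3 of 35 and 0, against 10.1% and 8.51%, and without SO-L1 replicate 3 again 3 of 35 and 0, against 9.41% and 8.07%. Without both libraries numbered 1 they were 1 of 33 and 0, against 4.45% and 2.5%. All ASO-L1 libraries exceeded all SO-L1 libraries in 10 of 32 tested members and the reverse held in 0, against 25.8% and 25.1% of all tested genes.

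**Figure D1:**
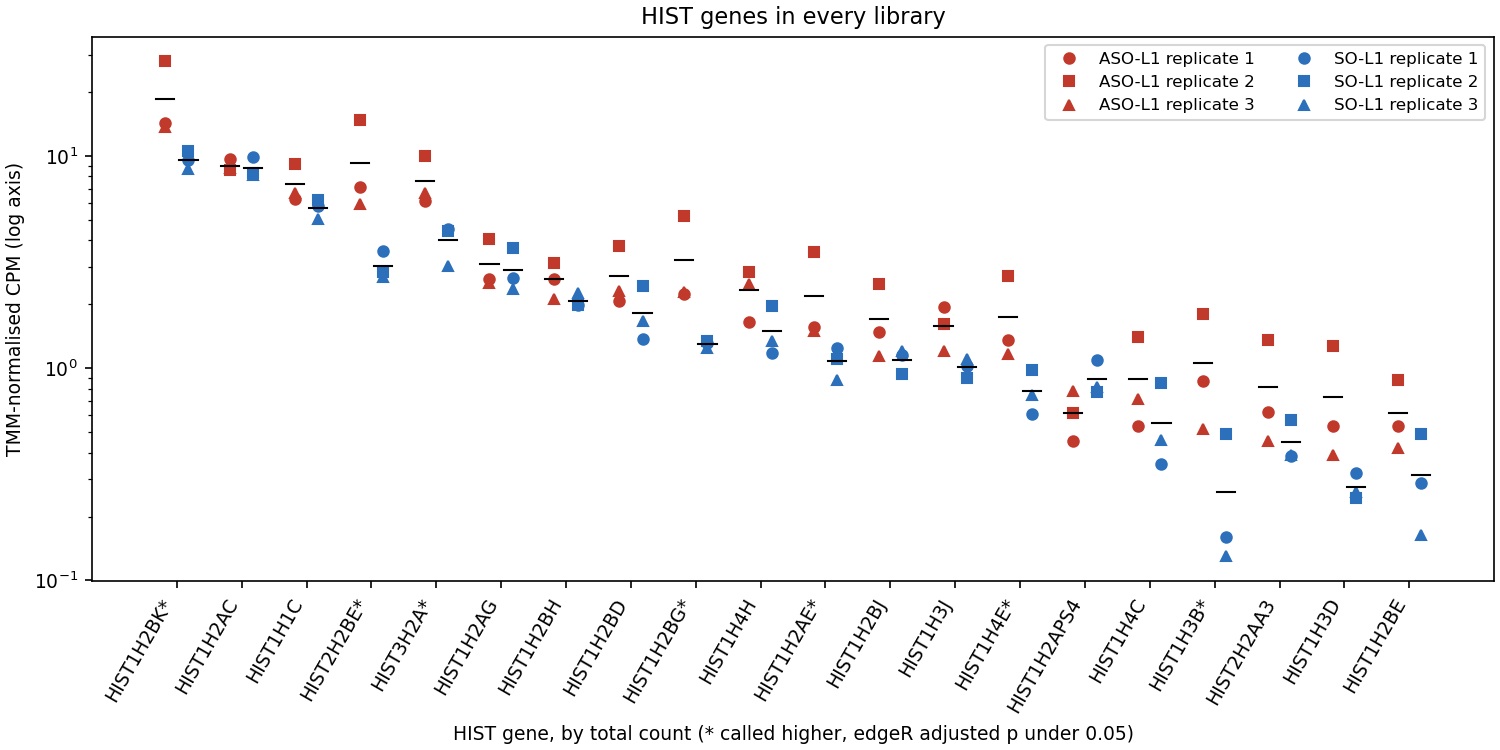
TMM-normalised CPM (log axis) of the 20 HIST genes named by the rule on read number and p, ordered by total count, in each library. ASO-L1 replicates are red on the left and SO-L1 replicates blue on the right of each gene, bars are means of 3, and an asterisk marks a gene called higher. The squares of ASO-L1 replicate 2 are the highest points for HIST1H2BK, HIST2H2BE, HIST3H2A and HIST1H2BG, and the groups lie on top of each other for HIST1H2AC.

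The share of genes highest in ASO-L1 replicate 2 was large among the members. It was the highest of the 6 libraries for 30 of 51 members and for 22 of 32 tested ones, against 32.9% of all tested genes. All 7 members called higher had their highest value there. Each of the 7 was also higher in ASO-L1 than in SO-L1 within replicate numbers 1 and 3, which follows from their groups not overlapping. The 7 were picked by a test on these same libraries, so neither observation is separate support for their calls.

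H2B genes held the largest part of the increase in reads. H2B pairs with H2A, and the dimers flank the H3 and H4 core of the nucleosome. The sum over 19 H2B members was 36.0, 65.5 and 32.4 CPM in ASO-L1 replicates 1 to 3, and 22.7, 24.9 and 22.3 CPM in SO-L1 replicates 1 to 3. The groups did not overlap, and the 3 SO-L1 libraries lay close together. The log2 ratio was 0.94, and 0.55 without ASO-L1 replicate 2. Of 11 tested H2B genes, 3 were called higher and 0 lower, against 18% and 15.7% of all tested genes. All 11 had a log2 fold change above 0, against 48.8% of all tested genes.

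HIST2H2BE, an H2B gene of the HIST2 cluster on chromosome 1 long known to make a tailed mRNA, had the smallest adjusted p of the H2B genes. Its level was 7.10, 14.8 and 5.94 CPM in ASO-L1 replicates 1 to 3, and 3.55, 2.85 and 2.68 CPM in SO-L1 replicates 1 to 3. Every ASO-L1 library lay above every SO-L1 library. It rose by 1.6 ± 0.35 (SE) on the log2 scale with an edgeR adjusted p of 0.0115, and was called higher in all 17 settings tried, with 1.05 without both libraries numbered 2. HIST1H2BK, which took more reads than any other member, had 14.3, 27.8 and 13.7 CPM in ASO-L1 replicates 1 to 3, and 9.60, 10.6 and 8.65 CPM in SO-L1 replicates 1 to 3. The groups were apart here as well, and replicate 2 of ASO-L1 was far above the other ASO-L1 libraries. HIST1H2BK rose by 0.95 ± 0.28 on the log2 scale (edgeR adjusted p = 0.0338), and by 0.54 without ASO-L1 replicate 2. The call did not hold if SO-L1 replicate 1 (adjusted p = 0.0681), 2 (0.0513) or 3 (0.103) was dropped, without both libraries numbered 1 (0.0676) and without both libraries numbered 3 (0.0534).

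HIST1H2BG lies in the HIST1 cluster on chromosome 6. It had 2.23, 5.22 and 2.27 CPM in ASO-L1 replicates 1 to 3, and 1.31, 1.34 and 1.24 CPM in SO-L1 replicates 1 to 3. The SO-L1 libraries were almost level, and all ASO-L1 libraries lay above them. HIST1H2BG rose by 1.3 ± 0.34 on the log2 scale (edgeR adjusted p = 0.0159), and by 0.79 without ASO-L1 replicate 2. The call was lost when SO-L1 replicate 1 (0.0641) or 3 (0.0622) was left out and without both libraries numbered 1 (0.0643).

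The other H2B genes named by the rule were not called. HIST1H2BD, known to make a tailed mRNA, had 2.06, 3.77 and 2.30 CPM in ASO-L1 replicates 1 to 3, and 1.38, 2.44 and 1.66 CPM in SO-L1 replicates 1 to 3. SO-L1 replicate 2 lay above ASO-L1 replicates 1 and 3, so the groups overlapped, while each replicate number was higher in ASO-L1. The log2 fold change was 0.58 ± 0.28 (edgeR adjusted p = 0.141, and 0.0202 with the replicate block, where it was called higher). HIST1H2BE (0.97 ± 0.47, adjusted p = 0.129), HIST1H2BJ (0.60 ± 0.31, 0.151) and HIST1H2BH (0.32 ± 0.20) had log2 fold changes above 0 with no call. HIST1H2BC, which shares a promoter region with HIST1H2AC, had 0.25 ± 0.35. Among members with too few reads for the test, HIST1H2BO had 40 counts in all. They were 13, 10 and 10 in ASO-L1 replicates 1 to 3, and 2, 2 and 3 in SO-L1 replicates 1 to 3. With no filter the log2 fold change of HIST1H2BO was 2.33 with an edgeR adjusted p of 0.0038. In the authors' deposited table its log2 fold change is 2.17 with an adjusted p of 0.0158. That table compares the same libraries, so it is not separate support.

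Upstream sequence is shown for 5 members, to set the promoters of 4 genes called higher beside that of a gene not called. The TATA box (TATAAA), the CCAAT box (CCAAT) and the octamer of H2B promoters (ATTTGCAT), searched on both strands (TTTATA and ATTGG are matches on the other strand), are in capitals in RefSeq promoters of GRCh38.p14 that run from 250 bases before to 50 bases after the start. HIST2H2BE is at chr1:149886633-149886932, strand -, HIST3H2A at chr1:228457824-228458123, strand -, HIST1H2BG at chr6:26216639-26216938, strand -, HIST1H3B at chr6:26032050-26032349, strand -, and HIST1H2BF, an H2B gene not called, at chr6:26199266-26199565, strand +.
HIST2H2BE: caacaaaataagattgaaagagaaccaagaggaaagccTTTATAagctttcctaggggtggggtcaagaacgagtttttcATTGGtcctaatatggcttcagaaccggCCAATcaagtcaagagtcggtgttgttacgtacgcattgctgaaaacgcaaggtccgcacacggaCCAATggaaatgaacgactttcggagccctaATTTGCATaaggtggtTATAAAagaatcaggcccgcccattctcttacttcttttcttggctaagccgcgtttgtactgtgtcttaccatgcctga
HIST3H2A: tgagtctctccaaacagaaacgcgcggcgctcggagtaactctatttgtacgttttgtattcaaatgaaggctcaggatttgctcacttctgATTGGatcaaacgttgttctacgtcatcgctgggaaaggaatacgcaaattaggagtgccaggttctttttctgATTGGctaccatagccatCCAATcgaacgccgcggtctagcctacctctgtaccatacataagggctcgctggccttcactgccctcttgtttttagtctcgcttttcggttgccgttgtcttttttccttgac
HIST1H2BG: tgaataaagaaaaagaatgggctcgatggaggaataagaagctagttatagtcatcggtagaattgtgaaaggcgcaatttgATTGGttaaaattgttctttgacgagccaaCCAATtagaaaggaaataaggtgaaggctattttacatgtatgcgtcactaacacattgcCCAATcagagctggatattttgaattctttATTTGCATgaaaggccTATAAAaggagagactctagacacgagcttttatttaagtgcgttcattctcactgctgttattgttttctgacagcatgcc
HIST1H3B: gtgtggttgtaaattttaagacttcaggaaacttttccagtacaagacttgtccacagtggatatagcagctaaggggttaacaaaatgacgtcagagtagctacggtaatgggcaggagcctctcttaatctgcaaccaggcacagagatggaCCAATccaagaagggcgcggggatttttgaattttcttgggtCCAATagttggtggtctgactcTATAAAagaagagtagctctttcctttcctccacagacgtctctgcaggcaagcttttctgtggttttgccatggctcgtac
HIST1H2BF: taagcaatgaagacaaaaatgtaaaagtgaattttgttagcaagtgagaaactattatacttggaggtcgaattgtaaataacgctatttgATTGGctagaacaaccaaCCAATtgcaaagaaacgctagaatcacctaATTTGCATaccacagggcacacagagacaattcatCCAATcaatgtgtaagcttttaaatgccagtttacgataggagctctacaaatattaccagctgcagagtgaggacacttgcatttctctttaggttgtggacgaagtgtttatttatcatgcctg

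HIST2H2BE and HIST1H2BG each hold all 3 elements, with the octamer shortly before the TATA box. HIST1H3B has TATA and CCAAT boxes, and HIST3H2A has CCAAT boxes alone. HIST1H2BF has the octamer and CCAAT boxes but no TATAAA in this window, and its log2 fold change was 0.12 ± 0.24, with 1.43 ± 0.169 CPM in ASO-L1 cells and 1.32 ± 0.260 CPM in SO-L1 cells (SD, n = 3 each). Promoters were found for 42 of the 51 members. TATAAA was in 26 of 42, or 61.9%, against 11.95% of all 27305 RefSeq promoters of the same length. CCAAT was in 36 of 42, or 85.7%, against 35.7%, with H4 genes holding it in 1 of 7. The octamer was in 19 of 42, or 45.2%, against 1.80%, and in 12 of 16 H2B and 6 of 10 H2A members. The H1 box AAACACA was in 3 of 3 H1 members, and in 5.76% of all promoters. Of the 7 members called higher, 5 had TATAAA, 6 had CCAAT and 4 had the octamer. A match describes the letters and does not show a site in use.

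H2A genes were divided between a few that rose and the member with the most H2A reads, for which the difference was small. The sum over 12 H2A members was 22.3, 30.3 and 22.1 CPM in ASO-L1 replicates 1 to 3, and 21.4, 20.2 and 17.2 CPM in SO-L1 replicates 1 to 3, a log2 ratio of 0.34 that was 0.18 without ASO-L1 replicate 2. The ASO-L1 libraries lay above the SO-L1 libraries, by little for replicates 1 and 3. Of 8 tested H2A genes, 2 were called higher and 0 lower, against 18% and 15.7% of all tested genes.

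HIST3H2A, the H2A gene of the HIST3 cluster on chromosome 1, had the smallest adjusted p of all members. It had 6.15, 9.96 and 6.69 CPM in ASO-L1 replicates 1 to 3, and 4.54, 4.44 and 3.03 CPM in SO-L1 replicates 1 to 3. The groups did not overlap. HIST3H2A had a log2 fold change of 0.92 ± 0.22 (edgeR adjusted p = 0.0105), and without both libraries numbered 1 the adjusted p was 0.0517. HIST1H2AE had 1.57, 3.51 and 1.49 CPM in ASO-L1 replicates 1 to 3, and 1.25, 1.1 and 0.881 CPM in SO-L1 replicates 1 to 3. The groups did not overlap, but replicates 1 and 3 of ASO-L1 were near the SO-L1 range. HIST1H2AE rose by 1.0 ± 0.35 on the log2 scale (edgeR adjusted p = 0.0480). This call was the least stable of the 7, since HIST1H2AE was called in 8 of 17 settings. It was lost without ASO-L1 replicate 2 (log2 fold change 0.51, adjusted p = 0.172), without SO-L1 replicate 1 (0.101), 2 (0.0929) or 3 (0.156), and without both libraries numbered 1 (0.0998), 2 (0.150) or 3 (0.0720). It was also lost with library totals in place of TMM (0.0517) and with limma-voom (0.0760).

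HIST1H2AC is known to make a tailed mRNA and took the most reads of the H2A genes. It had 9.66, 8.55 and 8.73 CPM in ASO-L1 replicates 1 to 3, and 9.86, 8.34 and 8.16 CPM in SO-L1 replicates 1 to 3. The groups overlapped almost wholly, and ASO-L1 replicate 2 was not raised here. The log2 fold change was 0.03 ± 0.12 (edgeR adjusted p = 0.868), and its sign changed under 5 of the 16 alternatives. The other H2A genes named by the rule also had no call. HIST1H2AG had 0.09 ± 0.24 and HIST2H2AA3 0.83 ± 0.45 (adjusted p = 0.171). The pseudogene HIST1H2APS4 ran the other way, with 0.454, 0.614 and 0.779 CPM in ASO-L1 replicates 1 to 3, and 1.09, 0.773 and 0.816 CPM in SO-L1 replicates 1 to 3. Only the lowest SO-L1 library reached the ASO-L1 range. Its log2 fold change of -0.52 ± 0.31 was the lowest among tested members (adjusted p = 0.217), and 5 of the 51 members are pseudogenes in GENCODE 29.

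**Figure D2:**
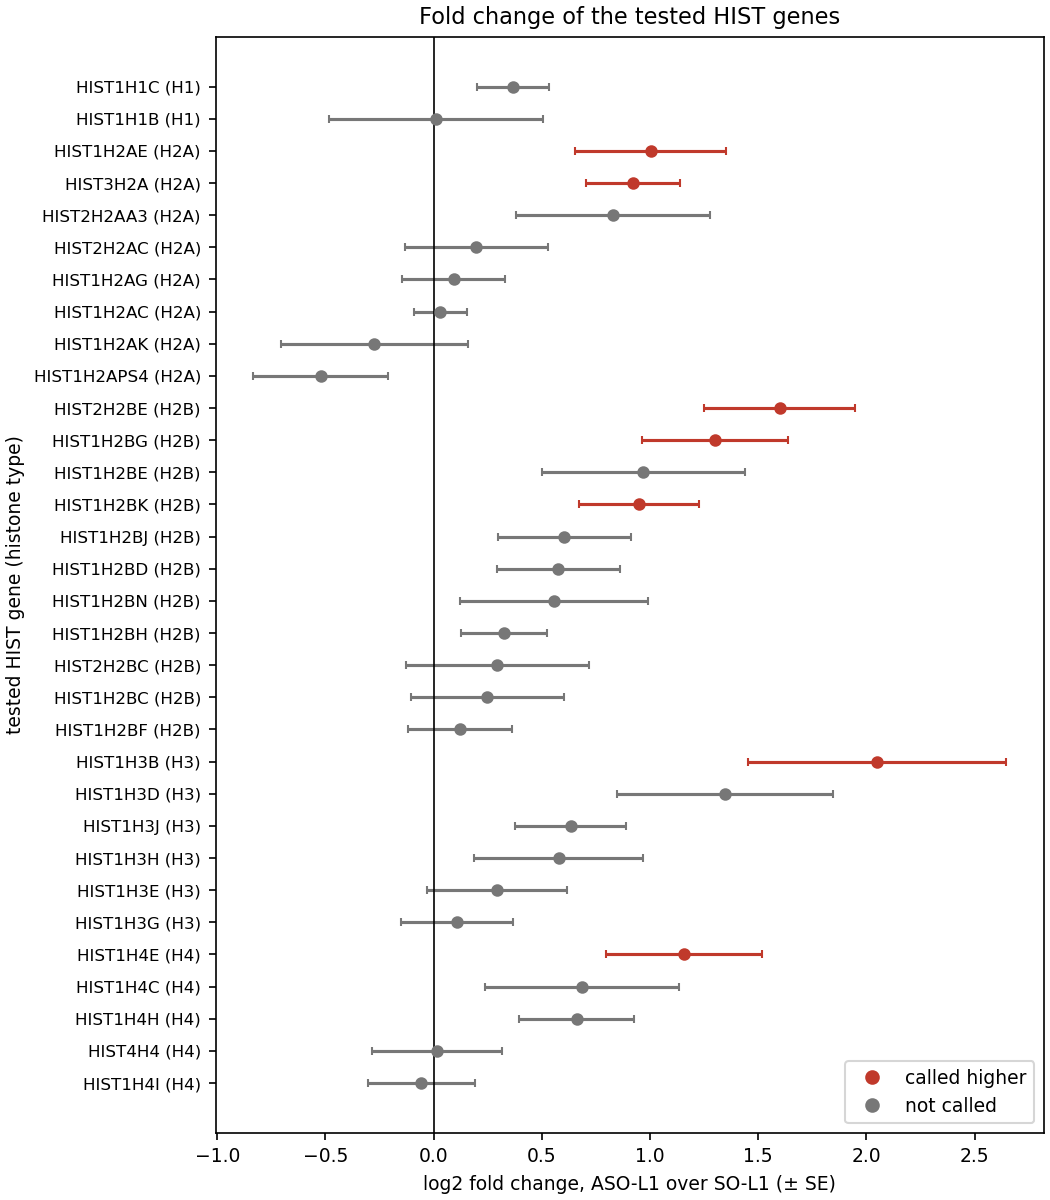
Log2 fold change of ASO-L1 over SO-L1 with its SE (horizontal bars) for the 32 tested HIST genes, grouped by histone type, from the edgeR quasi-likelihood fit. Red points are the 7 called higher, from 0.92 for HIST3H2A to 2.05 for HIST1H3B, and 29 of the 32 points lie right of 0.

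H3 genes had few reads. H3 and H4 form the tetramer at the centre of the nucleosome. The sum over 8 H3 members was 6.60, 8.73 and 4.19 CPM in ASO-L1 replicates 1 to 3, and 4.16, 4.35 and 3.91 CPM in SO-L1 replicates 1 to 3. ASO-L1 replicate 3 lay within the SO-L1 range, so the groups overlapped, with a log2 ratio of 0.65, or 0.38 without ASO-L1 replicate 2. HIST1H3B was the only H3 gene of 6 tested that was called higher, and none was called lower, against 18% and 15.7% of all tested genes. It had 0.867, 1.80 and 0.519 CPM in ASO-L1 replicates 1 to 3, and 0.160, 0.488 and 0.130 CPM in SO-L1 replicates 1 to 3. The highest SO-L1 library came close to the lowest ASO-L1 library, and within SO-L1 the values differed more than 3-fold. HIST1H3B rose by 2.05 ± 0.60 on the log2 scale (edgeR adjusted p = 0.0250), the largest rise among tested members. Only 1 SO-L1 library was above the filter level. The call was lost without ASO-L1 replicate 2 (0.0605), if SO-L1 replicate 1 (0.106) or 3 (0.0954) was dropped, and without both libraries numbered 1 (0.146). HIST1H3D (1.35 ± 0.50, adjusted p = 0.0573) was called with the replicate block (0.0232), and HIST1H3J (0.63 ± 0.26, 0.0792) was not.

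H4 genes had few reads as well. The sum over 8 H4 members was 6.11, 9.56 and 6.49 CPM in ASO-L1 replicates 1 to 3, and 4.96, 6.43 and 4.796 CPM in SO-L1 replicates 1 to 3, a log2 ratio of 0.45 with overlapping groups, and of 0.22 without ASO-L1 replicate 2. Of 5 tested, HIST1H4E was called higher and none was called lower, against 18% and 15.7% of all tested genes. HIST1H4E had 1.36, 2.72 and 1.17 CPM in ASO-L1 replicates 1 to 3, and 0.608, 0.977 and 0.750 CPM in SO-L1 replicates 1 to 3. Again the groups did not overlap. Its log2 fold change was 1.16 ± 0.36 (edgeR adjusted p = 0.0310). The call was lost without ASO-L1 replicate 2 (log2 fold change 0.71, adjusted p = 0.0995), if SO-L1 replicate 1 (0.126) or 3 (0.0945) was dropped, and without both libraries numbered 1 (0.140). HIST1H4H, with 0.66 ± 0.27 (adjusted p = 0.0795), was called with the replicate block (0.0151). HIST1H4C had 0.69 ± 0.45. HIST4H4, a lone H4 gene on chromosome 12, had 1.24, 0.921 and 0.682 CPM in ASO-L1 replicates 1 to 3, and 1.02, 0.977 and 0.783 CPM in SO-L1 replicates 1 to 3. The groups overlapped, with a log2 fold change of 0.02 ± 0.30.

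H1 genes encode the linker histone that binds the DNA entering and leaving the nucleosome. The sum over 4 H1 members was 6.81, 10.3 and 7.40 CPM in ASO-L1 replicates 1 to 3, and 6.53, 7.65 and 5.32 CPM in SO-L1 replicates 1 to 3, with overlapping groups and a log2 ratio of 0.33, or 0.13 without ASO-L1 replicate 2. HIST1H1C supplied 89.2% of these H1 reads. It had 6.27, 9.12 and 6.65 CPM in ASO-L1 replicates 1 to 3, and 5.83, 6.23 and 5.02 CPM in SO-L1 replicates 1 to 3. The groups were adjacent without overlap. Its log2 fold change was 0.37 ± 0.17 (edgeR adjusted p = 0.112, and 0.0308 with the replicate block, where it was called higher). Of the 2 tested H1 genes, none was called, against 18% called higher and 15.7% called lower among all tested genes.

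**Figure D3:**
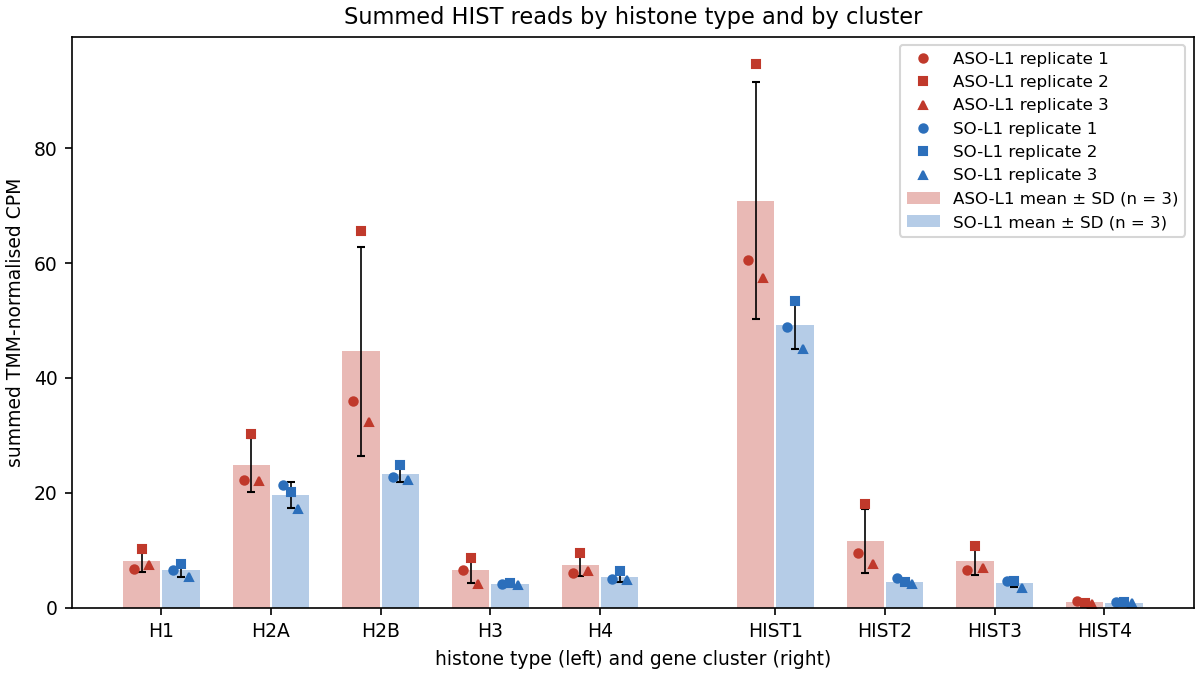
Summed TMM-normalised CPM of the HIST members by histone type (left) and by cluster (right), with 1 point per library and bars for the mean ± SD of 3 libraries. ASO-L1 is left of SO-L1 in each group, and the largest gap in CPM among types is in H2B, at 44.6 ± 18.2 CPM in ASO-L1 and 23.3 ± 1.39 CPM in SO-L1 cells.

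By cluster, the log2 ratio of summed CPM was 0.53 for HIST1, 1.35 for HIST2, 0.92 for HIST3 and 0.03 for HIST4. Without ASO-L1 replicate 2 it was 0.26 for HIST1, 0.90 for HIST2, 0.66 for HIST3 and 0.05 for HIST4. The smaller clusters rest on single genes. HIST2H2BE supplied 75.1% of the HIST2 reads and HIST3H2A 93.6% of the HIST3 reads, and HIST3H2BB, the leading H2B gene of HIST3, had 36 counts and was not tested. In HIST1, 5 of 26 tested genes were called higher, against 18% of all tested genes. Gaps over 500000 bases divide HIST1 into 3 stretches on chromosome 6 in GENCODE 29. In the first stretch 4 of the 17 tested genes were called higher, 1 of 4 in the second and 0 of 5 in the third. With so few genes and 18% of all tested genes called higher, these counts do not set the stretches apart.

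**Figure D4:**
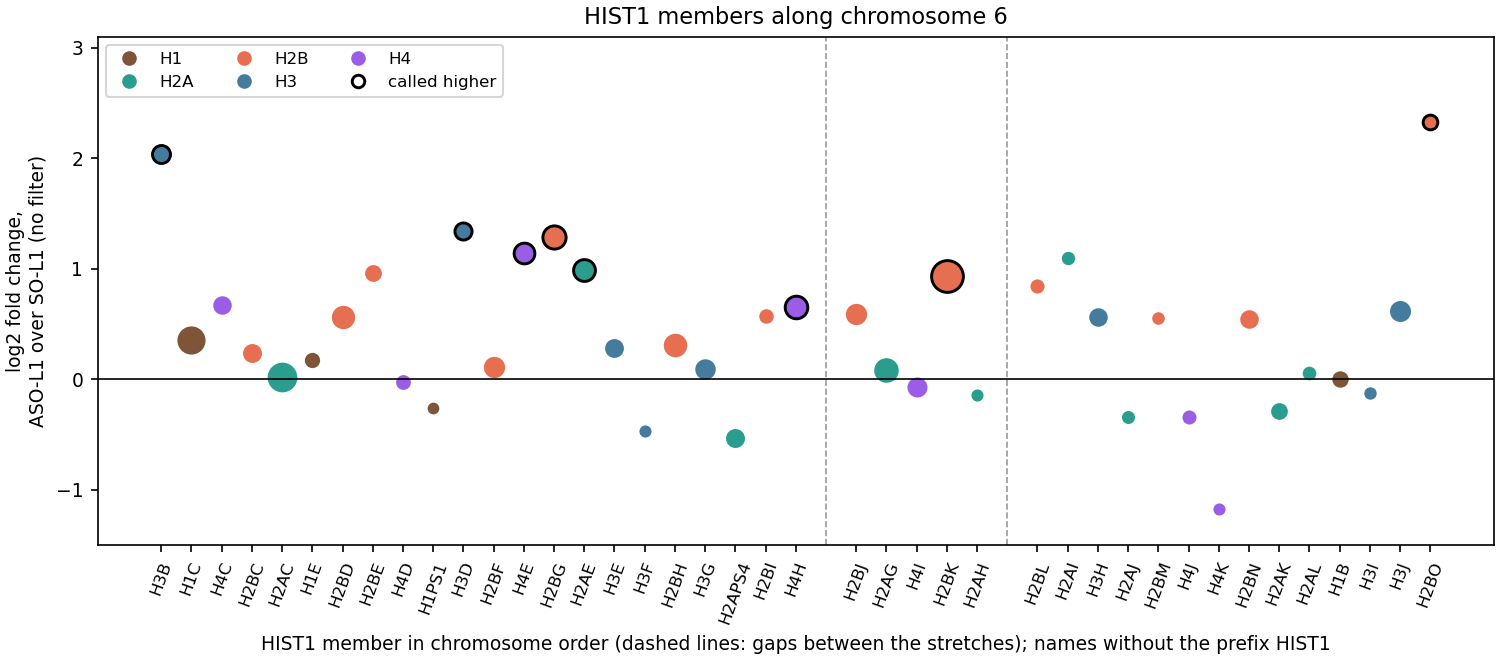
Log2 fold change of ASO-L1 over SO-L1, from the fit with no filter, for the 41 HIST1 members in their order on chromosome 6. Colour gives the histone type, larger points have more counts, black rims mark genes called higher in that fit, and dashed lines separate the 3 stretches. Some genes called higher stand beside neighbours near 0, as HIST1H3D and HIST1H4E do beside HIST1H2BF. Others stand together, as HIST1H4E (1.15), HIST1H2BG (1.29) and HIST1H2AE (0.99) do.

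Neighbours that share a promoter region did not always have like values. H2A and H2B genes often lie head to head, and 16 pairs of HIST genes had starts within 1000 bases on opposite strands. Both genes were members in 10 pairs and both were tested in 4. HIST1H2BG and HIST1H2AE were the only such pair with both genes called higher (1.3 and 1.0). HIST2H2BE (1.6 ± 0.35) faces HIST2H2AC, which had 0.619, 0.614 and 0.519 CPM in ASO-L1 replicates 1 to 3, and 0.640, 0.407 and 0.457 CPM in SO-L1 replicates 1 to 3, with a log2 fold change of 0.20 ± 0.33. In the remaining pairs with both genes tested no gene was called. The values were 0.25 for HIST1H2BC and 0.03 for HIST1H2AC, and 0.60 for HIST1H2BJ and 0.09 for HIST1H2AG. HIST3H2A (0.92) and HIST1H2BK (0.95) were called higher, and their partners HIST3H2BB, with 36 counts, and HIST1H2AH, with 18, were not tested. Differences between neighbours were not tested. Whether counting used strand is not given in the sources used here, so reads in overlapping transcripts of such neighbours cannot be told apart.

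Annotated transcript ends show how a HIST gene can yield tailed mRNA. The stem-loops of 6 members are shown with 5 bases on each side and the 16 bases of the stem-loop in capitals, from GENCODE 29 transcripts. HIST2H2BE, HIST3H2A and HIST1H4E were called higher, and HIST1H2AC, HIST1H2BD and HIST4H4 were not.
HIST2H2BE-201: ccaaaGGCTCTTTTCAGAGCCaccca
HIST3H2A-201: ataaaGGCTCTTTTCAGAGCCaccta
HIST1H4E-201: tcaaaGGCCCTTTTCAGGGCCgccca
HIST1H2AC-202: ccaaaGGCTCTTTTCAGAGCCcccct
HIST1H2BD-202: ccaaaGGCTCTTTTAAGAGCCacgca
HIST4H4-204: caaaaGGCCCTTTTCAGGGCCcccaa

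HIST2H2BE, HIST3H2A and HIST1H2AC have the same 16 bases, the form found in 18 HIST genes, although HIST1H2AC was not called. HIST1H4E and HIST4H4 likewise share a form, found in 5 genes. The transcripts shown then run on by 1729 bases in HIST2H2BE, 390 in HIST3H2A, 1022 in HIST1H4E, 1114 in HIST1H2AC and 169 in HIST4H4, but by 39 in HIST1H2BD. Other annotated transcripts run further. HIST4H4-201 runs on by 1510 bases and HIST4H4-205 by 507. HIST1H2BD-201, of 789 bases, lacks the searched stem-loop forms but has a poly(A) signal near its end. The last 30 bases of 3 transcripts of genes called higher are shown with the poly(A) signal, AATAAA or a variant of it, in capitals.
HIST2H2BE-201: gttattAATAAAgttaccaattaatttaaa
HIST3H2A-201: tctgatATTAAAagtatttatgatctctaa
HIST1H4E-201: ctctgaaAATAAAgtctttgttacttcctg

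In GENCODE 29, 24 of the 89 symbols have a transcript that ends at least 100 bases past a stem-loop. These 24 had a median of 139 counts over the 6 libraries, against 11 for the other 65, and 20 of them were members. The annotation is not that of the authors' counting, and a longer model collects more reads. Models are also incomplete, as HIST1H2BK, the member with the most reads, is given as its coding part of 381 bases. Among tested members, 4 of 17 with such a transcript and 3 of 15 without it were called higher, against 18% of all tested genes. The median log2 fold change was 0.32 with such a transcript and 0.60 without it. Of the 6 genes listed from general knowledge as making tailed mRNA, HIST1H2BK and HIST2H2BE were called higher, and with the replicate block HIST1H1C and HIST1H2BD as well. Of these 6, HIST1H2BK, HIST1H1C and HIST1H2BD were counted among the genes without such a transcript.

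The authors' deposited table of fold changes compares the same libraries, so it is not separate support, and holds all 51 members. In it 6 are higher and 0 lower at an adjusted p under 0.05, against 11.7% of its 20964 genes higher and 9.77% lower. Of these, HIST2H2BE (adjusted p = 0.0095), HIST3H2A (0.0175), HIST1H3B (0.0250), HIST1H2BK (0.0309) and HIST1H2BG (0.0364) in the authors' deposited table were also called here, and HIST1H2BO (0.0158) was not tested here after the filter. HIST1H4E and HIST1H2AE have adjusted p-values of 0.0668 and 0.0978 in the authors' deposited table.

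**Figure D5:**
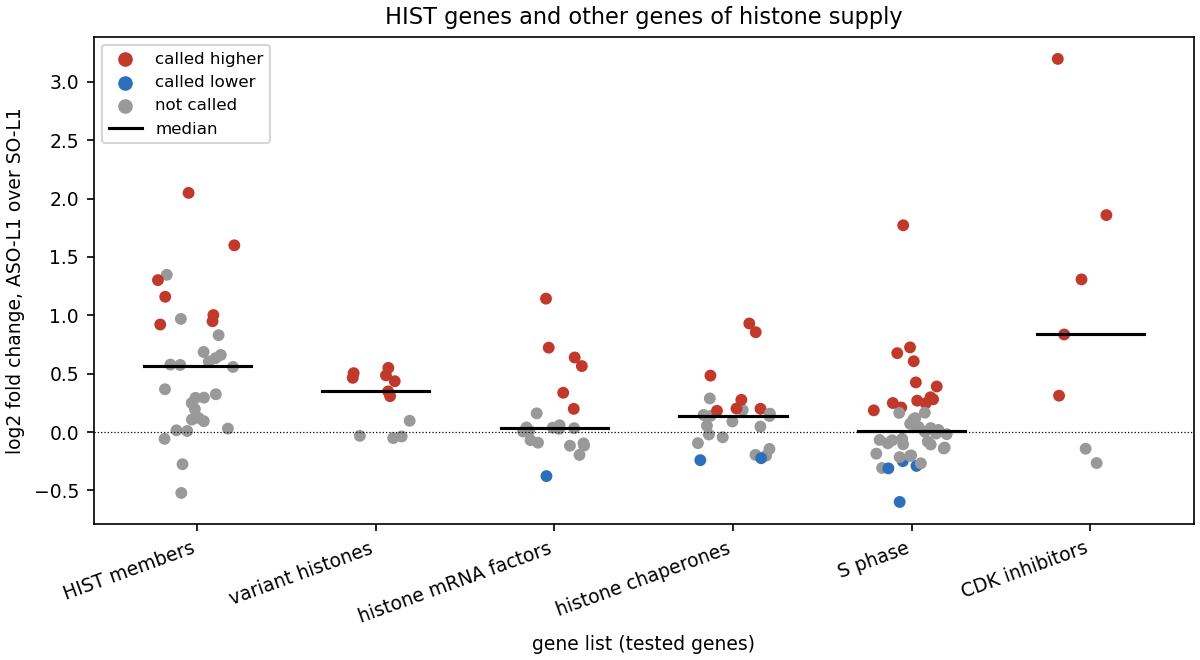
Log2 fold change of ASO-L1 over SO-L1 for tested genes of 6 lists, with 1 point per gene, horizontal bars for the median, red for genes called higher and blue for genes called lower. The median was 0.57 for HIST members, 0.35 for variant histones, 0.03 for histone mRNA factors and 0.01 for S-phase genes, and CDKN2C is the highest point at 3.20.

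Variant histones, most of them replication-independent and with tailed mRNAs, are another source of histone protein. Of 11 tested, 7 were called higher and 0 lower, against 18% and 15.7% of all tested genes. The median log2 fold change of the 11 was 0.35. H2AFZ, the H2A variant at promoters, had 624 ± 102 CPM in ASO-L1 cells and 426 ± 24.4 CPM in SO-L1 cells (SD, n = 3 each), a log2 fold change of 0.55 ± 0.10 (edgeR adjusted p = 0.00468). H3F3B, which encodes the replacement H3, had 743 ± 127 CPM in ASO-L1 cells and 524 ± 10.4 CPM in SO-L1 cells (0.50 ± 0.10, adjusted p = 0.00637, and 0.0510 without both libraries numbered 1). H2AFX (0.46 ± 0.11), the H2A that is phosphorylated at DNA breaks, and H2AFJ (0.44 ± 0.11) were called as well. Without SO-L1 replicate 3 the adjusted p was 0.0540 for H2AFX and 0.0547 for H2AFJ. Without both libraries numbered 2 H2AFX rose by 0.28. Without both libraries numbered 1 the adjusted p was 0.0586 for H2AFX, and without both libraries numbered 3 0.0912 for H2AFJ.

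Factors that make and process histone mRNA went in both directions. Of 21, with a median of 0.03, 6 were called higher and 1 lower, against 18% and 15.7% of all tested genes. SLBP, the stem-loop binding protein, had 141 ± 17.8 CPM in ASO-L1 cells and 95.4 ± 5.49 CPM in SO-L1 cells (SD, n = 3 each), and rose by 0.57 ± 0.09 on the log2 scale (edgeR adjusted p = 0.00249). CASP8AP2, a protein of the histone locus body also called FLASH, had 89.2 ± 12.7 CPM in ASO-L1 cells and 54.0 ± 6.03 CPM in SO-L1 cells (0.72 ± 0.11, adjusted p = 0.00231). ZNF473, a zinc finger protein of the U7 particle that cuts histone pre-mRNA, rose by 1.14 ± 0.18, and HINFP, which activates H4 genes, by 0.64 ± 0.10. NPAT, the coactivator of the histone locus body that cyclin E and CDK2 phosphorylate, had 41.1 ± 3.62 CPM in ASO-L1 cells and 47.1 ± 3.63 CPM in SO-L1 cells (-0.20 ± 0.09, adjusted p = 0.118). NCBP2, of the nuclear cap-binding complex, was the gene called lower (-0.38 ± 0.08).

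Calls among histone chaperones and S-phase genes were also mixed. Over all tested genes, 18% were called higher and 15.7% lower, and with the replicate block 23.3% and 22.5%. Of 24 chaperone genes, 7 were called higher and 2 lower, and with the replicate block 9 higher and 5 lower. DAXX, a chaperone of replacement H3, rose by 0.86 ± 0.11 on the log2 scale and DNAJC9, a co-chaperone of H3 and H4, by 0.93 ± 0.13. HJURP, the chaperone of the centromeric H3, rose by 0.48 ± 0.08. UBN1, of the HIRA complex, rose by 0.28 ± 0.06 (adjusted p = 0.0101), with adjusted p-values of 0.101 and 0.0731 without both libraries numbered 1 or 3. Of 44 S-phase genes, 13 were called higher and 4 lower with a median of 0.01, and with the replicate block 15 higher and 9 lower. E2F1, a transcription factor of S-phase entry, rose by 0.68 ± 0.08, CDK2, the kinase partner of cyclin E, by 0.61 ± 0.11 and GINS3, of the replicative helicase, by 0.73 ± 0.13. POLA2, a subunit of the polymerase that primes replication, was lower (-0.60 ± 0.11, adjusted p = 0.00386), and 0.0617 without both libraries numbered 1.

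Of 7 inhibitors of cyclin-dependent kinases, 5 were called higher and 0 lower, against 18% and 15.7% of all tested genes. CDKN2C had 1.88 ± 1.49 CPM in ASO-L1 cells and 0.199 ± 0.0881 CPM in SO-L1 cells (SD, n = 3 each), a log2 fold change of 3.20 ± 0.66 (edgeR adjusted p = 0.00763). CDKN2D had 9.93 ± 1.92 CPM in ASO-L1 cells and 5.53 ± 0.700 CPM in SO-L1 cells (0.84 ± 0.16, adjusted p = 0.00457, and 0.0566 without both libraries numbered 1). CDKN2B (1.86 ± 0.47, adjusted p = 0.0223) lost its call without SO-L1 replicate 3 (0.0768), without both libraries numbered 1 (0.0554) or 3 (0.162) and with no filter (0.0597). CDKN2A (1.31 ± 0.39, adjusted p = 0.0272) lost its call without ASO-L1 replicate 2 (0.0997), without SO-L1 replicate 1 (0.0680), 2 (0.0601) or 3 (0.101), and without both libraries numbered 1 (0.0870), 2 (0.0957) or 3 (0.0622). CDKN1A, an inhibitor raised by p53, had 135 ± 22.7 CPM in ASO-L1 cells and 163 ± 31.2 CPM in SO-L1 cells (-0.27 ± 0.16, adjusted p = 0.221), and with the replicate block it was called lower (0.00143).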

How the data were processed

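Poly(A) RNA of 6 libraries, 3 of ASO-L1 and 3 of SO-L1 cells, was prepared with a directional kit per the labels. The authors deposited raw counts per gene symbol, with duplicates removed per the table's title. Per the submitters' processing notes, the tools were TopHat2 2.0.13, Trim Galore 0.4.0, Subread 1.5.0 and featureCounts, with the build hg19 and no roles stated. The sources used here do not give the annotation, the use of strand, the handling of reads that map to several places or what the duplicate removal covered. Without molecular identifiers, duplicate removal lowers abundant genes most. The authors also deposited batch-corrected log2 values and a comparison with log2 fold changes, p-values, adjusted p-values and t and log-odds scores, per the file headers. Its model is not stated.

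Genes were filtered on their counts with filterByExpr (minimum count 10, minimum total 15), scaled by TMM and tested two-sided with edgeR 4.0.16 (R 4.3.3) by its robust quasi-likelihood test without a block, Benjamini-Hochberg adjusted over 16873 genes, with calls at an adjusted p under 0.05. An SE is the size of the unshrunken log2 coefficient of the fit over the root of F. The log2 fold changes given are edgeR's shrunken values. The common biological coefficient of variation was 10.2%. The pipeline was tested on simulated counts. Samples were grouped by the transfection label. The members and lists were chosen with earlier results of these data known. Named genes are the 12 members with the highest mean CPM, the next 8 by p, the highest of each cluster and type, the tailed and testis lists, the genes beside the limit of 15, up to 4 genes per other list by p, and SLBP, NPAT and CASP8AP2. Genes named beyond this rule (HIST1H2BO, HIST1H2BF, HIST2H2AC, the copies, NCBP2, CDKN1A and markers) were chosen after their values were seen. Motifs and stem-loop forms came from RefSeq promoters (88 of 89 symbols matched, 66 with a promoter) and GENCODE 29 transcripts.

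The main test did not pair libraries, and the replicate numbers served as a block in an alternative fit only. That fit was run because deviations from the group means correlated at 0.102, 0.377 and 0.211 for numbers 1, 2 and 3. Replicate 1 of SO-L1 correlated more with replicate 3 of ASO-L1 (0.156), and replicate 3 of SO-L1 with replicate 1 of ASO-L1 at 0.162. No libraries of a group were alike within sampling noise. Alternatives were DESeq2 1.42.0, limma-voom (limma 3.58.1), other scalings and filters, the block, and leaving out libraries.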

Additional observations from a re-analysis of the deposited data

How the results depend on the processing

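Over 17 settings no HIST gene was called lower, and 1 to 11 were called higher. With the replicate number as a block, 11 were called higher, where the count without it was 7, and no call of a named HIST gene was lost. Leaving out 1 library gave 3 to 11 calls, with 4 without ASO-L1 replicate 2, 11 without ASO-L1 replicate 3 and 3 without SO-L1 replicate 1 or 3, and leaving out both libraries numbered 1 gave 1. When libraries were left out, the median log2 fold change of tested members ran from 0.22, without ASO-L1 replicate 2, to 0.68, and was 0.32 without both libraries numbered 2. The count over all genes, 5684, ran from 1183, without both libraries numbered 1, to 7197, without both numbered 2, and was 3166 without SO-L1 replicate 1, 2975 without SO-L1 replicate 3 and 2820 without both numbered 3. Of the named genes 41 were called, and leaving out libraries gave 18 (both numbered 1) to 44 (ASO-L1 replicate 3), with 24 without SO-L1 replicate 3. Each such fit had fewer samples, and the cause beyond that was not tested. Members whose log2 fold change changed sign were not called in any setting. HIST1H2AC had -0.0036 with library totals, and -0.024 to 0.12 when libraries were left out. HIST4H4 had -0.018 with library totals, -0.023 with limma-voom, and -0.21 to 0.22 when libraries were left out. Leaving out libraries gave -0.15 to 0.28 for HIST1H2AG and -0.036 to 0.50 for HIST1H2BC. Among all single named genes and alternatives, 812 values kept direction and call, 90 lost and 16 gained the call, and 13 changed sign. With a median of 98 counts per member, only large differences were detectable in most single members at this depth.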

Other observations

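In the authors' deposited batch-corrected table, which holds 46 of the 51 HIST members, the 3 ASO-L1 values lay above the 3 SO-L1 values for 22 members and below them for 1, against 29.5% of all its genes above. The share of all its genes below is not given here. In CPM from the counts, without that correction, the 3 ASO-L1 values were above the 3 SO-L1 values for 10 of 32 tested members and below them for 0. The shares of all tested genes were 25.8% and 25.1%. Over all 51 members, 19 of them not tested, the numbers were 13 and 0. The shares above are over tested genes only, so these numbers have no like share beside them. The batch correction is the authors' and its model is not stated, so these values are a description.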
